A study of Homo sapiens with 6 samples.

Results

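The set described here holds 52 interferon-stimulated genes and RNA sensors, of 24462 gene symbols counted. They were matched by gene symbol from a list of genes known to respond to interferon, with the genes of antigen presentation and the immunoproteasome left out. All 52 symbols were present in each library, 48 to 50 of them had at least 1 read in a given library, and 45 had enough reads to be tested. RNA was measured by QuantSeq, a 3′ end method that makes about 1 fragment per transcript, in MDA-MB 231 cells, a human triple-negative breast cancer line of mesenchymal character. There were 3 groups of 2 libraries, all harvested 48 h after transfection. The first received a negative control (NC) mimic, whose dose the labels do not give. The second received a miR-200a mimic at 100 nM, a small RNA of the miR-200 family. The third received the same mimic and 30 ng of a pcDNA3.1 plasmid that carries the ELK3 coding sequence, and ELK3 is an ETS family transcription factor whose transcript the study examined as a target of miR-200a. All groups come from 1 cell line, and nothing in the labels or methods says that the 2 libraries of a group came from separate cultures, so the p-values measure the spread between these libraries, which may be technical. The study's methods make a general statement that its tested data came from independent experiments, but do not apply it to these libraries by name.

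Interferon-stimulated genes are the effector arm of innate immunity. Cytosolic sensors of foreign or misplaced RNA and DNA signal to the IRF factors that switch on interferon genes, and secreted interferon then acts through cell surface receptors, JAK kinases and a transcription complex that holds STAT2 and IRF9. That complex binds the interferon-stimulated response element (ISRE) upstream of genes whose products block viral translation, degrade RNA, trap particles at membranes or tune the response itself, and many tumour lines transcribe a part of this set without added interferon.

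Library totals ranged from 3055915 to 4868004 counts, and 5.21% to 6.48% of them fell on the 10 most abundant genes. Levels are given as CPM, which scale the reads of a gene to a common library size after TMM normalization. A count of 3, the upper limit that a count of 0 allows, corresponded to 0.611 to 0.979 CPM, and this limit covers counting error only. The counts of ELK3 itself were 618 and 509 in NC mimic libraries, 493 and 505 after miR-200a, and 406 and 337 where the plasmid was added. It was lower there than with the NC mimic (log2 fold change -0.79, standard error 0.15, adjusted p = 0.0117), and its difference from miR-200a alone was -0.23 (adjusted p = 0.354). Between miR-200a and the NC mimic the difference was -0.56 (adjusted p = 0.232). The reads come from the 3′ end of transcripts, and a plasmid that carries only the coding sequence need not add reads there, so this value does not check the transfection. This group is therefore named by its label, as ELK3-labelled libraries, below. By qRT-PCR and western blot, the study reports that ELK3 mRNA and protein fell with the mimic and returned to the control level with the plasmid. It does not say whether the RNA sequenced here came from those same cells. The 2 ELK3-labelled libraries stood further apart from each other than the replicates of the other groups. The root mean square difference in log2 CPM was 0.559 over all tested genes, against 0.403 between NC mimic libraries and 0.342 between miR-200a libraries, and over the members these values were 0.403, 0.398 and 0.290. Where a gene is followed by 3 pairs of values, they are those of the NC mimic, miR-200a and ELK3-labelled libraries, in that order. The mesenchymal genes VIM, CD44, AXL, MSN and CAV1 were all detected, with a summed count of 13438 to 23162 in each library. Of the genes chosen as low or absent in this line, the oestrogen receptor gene ESR1 was at 0. The progesterone receptor gene PGR was at 0 to 1 count and FOXA1 at 0 to 3. ERBB2, the gene of HER2, had 99 to 232 counts and GATA3 had 14 to 42, so these were not absent. Of the leukocyte markers, CD68 gave 57 to 144 counts, MS4A1 was at 0, and PTPRC, CD3E and CD14 reached at most 10, 5 and 2. CLEC4C and LILRA4, which mark the interferon-producing plasmacytoid dendritic cell, were at 0 in all 6 libraries. The endothelial gene PECAM1 had 3 to 13 counts.

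The mature miR-200a-3p strand is encoded at chr1:1167916-1167937 on the plus strand of GRCh38.p14 (RefSeq). It is printed because it is the agent that both treated groups share, and the capitals mark the seed, bases 2 to 8, which pairs with target transcripts.
hsa-miR-200a-3p: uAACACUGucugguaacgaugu

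The reverse complement of that seed, CAGTGTT, was present in the longest annotated 3′ untranslated region of 6 of the 52 members (11.5%), against 21.6% of the 11258 tested genes with an annotated region. The 6 were EIF2AK2 and RSAD2 with 2 matches each, and IFIT2, CMPK2, MX1 and DTX3L with 1 each. The 2 sets are unlike, since the 52 include untested members, among them RSAD2 and CMPK2, and the background holds tested genes only. Regions of members ran from 62 bases (ISG15) to 8063 bases (EIF2AK2), and the shares were not adjusted for length. A match is a description of the sequence and says nothing about binding.

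The promoter sequences show what many members share beyond their name. RefSeq promoters (GRCh38.p14, 250 bases before to 50 bases after each start site) were matched for 42 of the 52 members, DDX58 under its present symbol RIGI. Entries were missing for DHX58, OAS2, OASL, IFIT2, IFITM2, MX2, GBP2, USP18, IRF7 and TRIM22. The ISRE core was searched as GAAANNGAAA on both strands, so that TTTCNNTTTC also counts, and it was found in 29 of the 42 members (69%). It was found in 4.38% of all genes with an entry, in 3.97% of the 10065 tested ones, and in 3.57% of all 35116 promoters, against 59.6% of the 57 promoters of members. The core of the STAT site was searched as TTCNNNGAA, which reads alike on both strands and can overlap an ISRE core. It was found in 12 of the 42 members (28.6%), against 9.38% of all genes with an entry and 8.62% of the tested ones, and in 24.6% of the promoters of members, against 7.66% of all promoters. The windows below belong to the members whose RNA differed in at least 1 comparison and whose promoter held a core. They are written 5′ to 3′ on the strand of the gene, with ISRE cores in capitals and, for IRF9 only, its STAT core. STAT cores of the other genes are not marked, and that of IFI27 lies inside its printed window.
IFIT3: ttaggTTTCATTTTCctcct
IFIT1: tagTTTCACTTTCcccTTTCGGTTTCcct
IFIH1: ttcgcTTTCCTTTTCTGTTTCccgcg
IFITM1: agcagGAAATAGAAActtaa
BST2: tctggGAAACTGAAACTGAAAaccta
IFI27: cagTTTCGGTTTCctgGAAAATGAAAcct
EPSTI1: tctgaGAAACCGAAActcag
IRF9: gtgatTTCTGGGAAaaggc

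The IFIT3 window lies at chr10:89327836-89327855 and the IFIT1 window at chr10:89392504-89392532, both on the plus strand. The IFIH1 window is at chr2:162318823-162318848 on the minus strand and IFITM1 at chr11:313995-314014 on the plus strand. BST2 is at chr19:17405740-17405765 on the minus strand and IFI27 at chr14:94110625-94110653 on the plus strand. EPSTI1 is at chr13:42992277-42992296 on the minus strand and IRF9 at chr14:24161197-24161215 on the plus strand. All are GRCh38.p14 positions upstream of the start site, 116 bases before it for IFIT1, 156 for IFIT3, 159 for IFIH1, 40 for IFITM1 and 130 for BST2. IFIT1, IFIH1, BST2 and IFI27 each carried 2 ISRE cores within 30 bases, spaced apart in IFIT1 and IFI27 and overlapping in IFIH1 and BST2. Cores further away are not printed. In the whole promoter IFIT3 and IFITM1 each held 2 ISRE cores and IFIH1 held 3. IRF9 is the exception in this group, with a STAT core and no ISRE core. UBE2L6, whose RNA also differed, had neither core in its window.

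**Figure D1:**
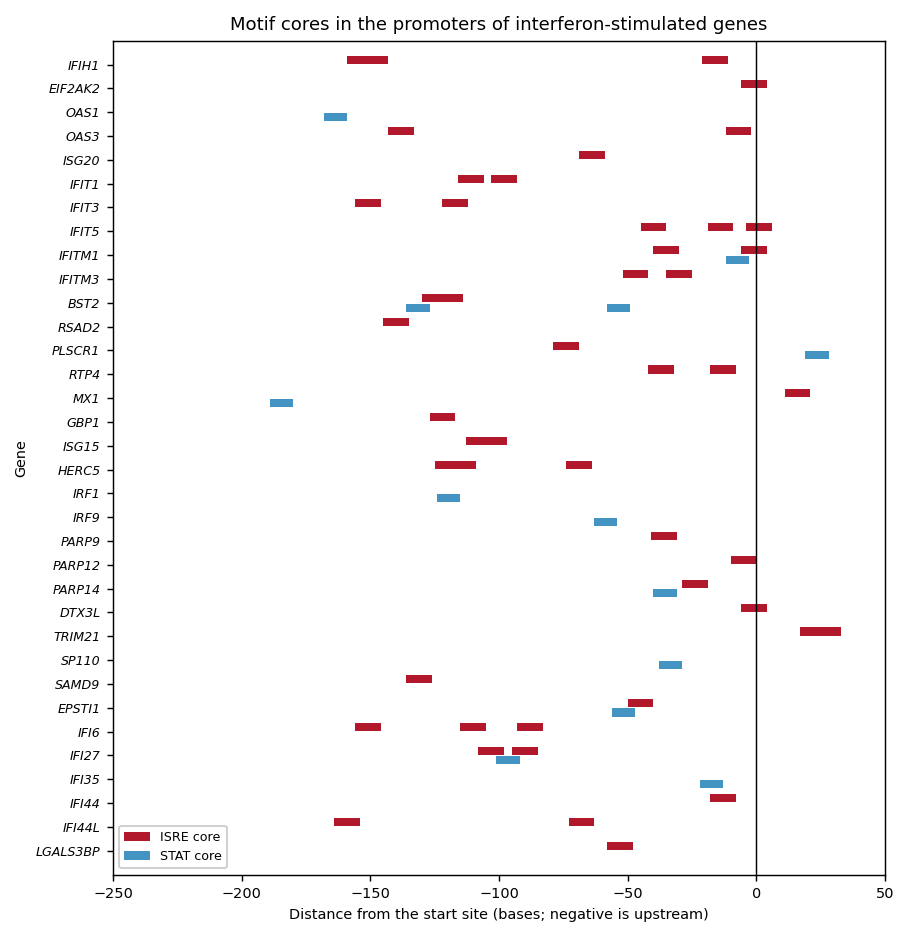
Positions of the ISRE and STAT cores in the RefSeq promoters of the matched members that hold at least 1 core. The horizontal axis is the distance from the start site in bases, each row is a gene and each mark is a core, coloured by its type. The ISRE cores are found in 29 members and the STAT cores in 12.

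The members differed widely in abundance. With the NC mimic, IFITM3 was at 579 and 509 CPM, GBP2 at 206 and 183 CPM and LGALS3BP at 143 and 160 CPM, while MX1 was at 4.90 and 6.85 CPM. Since QuantSeq reads 1 end of each transcript, these levels need no correction for length. No read of RSAD2 (viperin) or CMPK2 was counted in any library. OAS1, RTP4, MX2, USP18 and TRIM22 had at most 11 counts in a library and were not tested, and USP18, which removes ISG15 from proteins, was the most even of them with 5 to 11 counts. All members together took 0.223% and 0.217% of counts in NC mimic libraries, 0.258% and 0.259% after miR-200a, and 0.215% and 0.255% in the ELK3-labelled libraries. Both miR-200a libraries lay above the other 4, and the ELK3-labelled group overlapped the NC mimic. Without the abundant IFITM1, IFITM2 and IFITM3, the shares were 0.145% and 0.145%, 0.171% and 0.170%, and 0.148% and 0.154%, with the miR-200a libraries again highest. In bulk RNA, fewer cells that express a gene and less RNA per cell cannot be told apart.

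**Figure D2:**
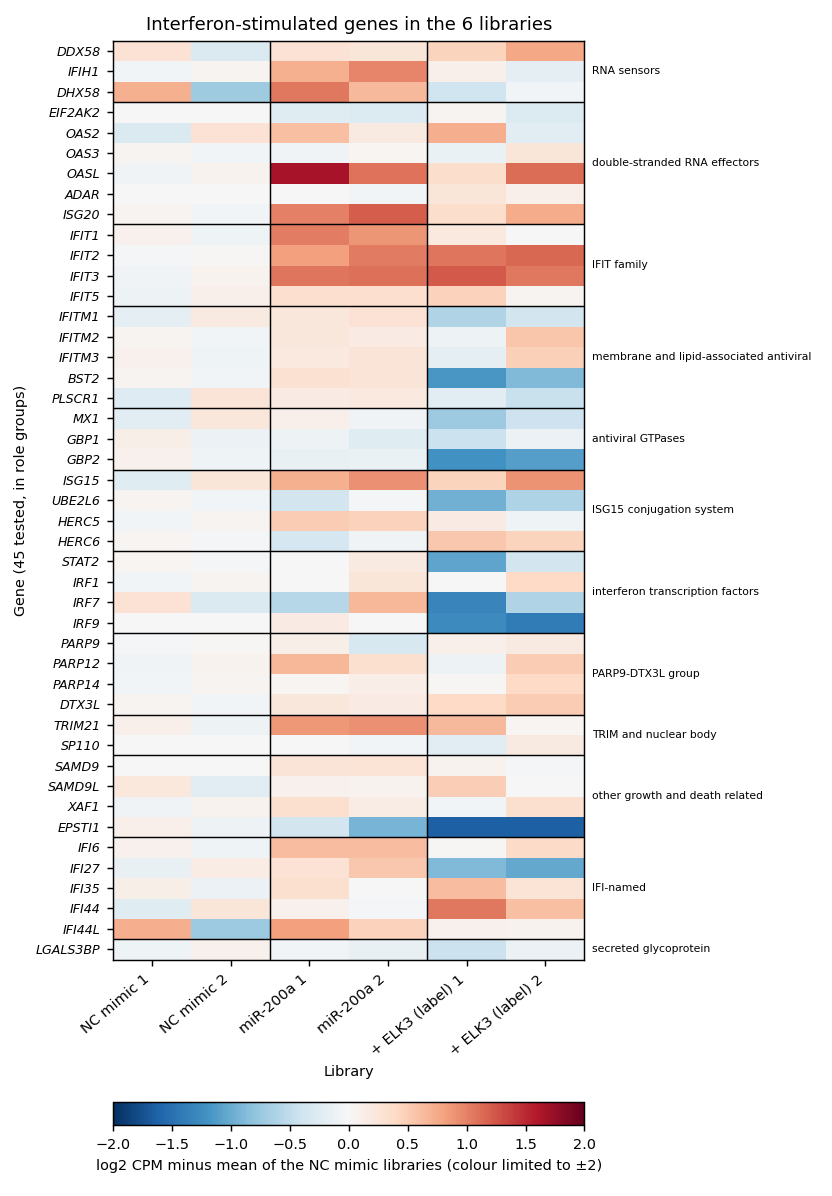
Level of each of the 45 tested members in the 6 libraries. Rows are genes in their role groups, columns are libraries, and the colour is log2 CPM minus the mean of the NC mimic libraries, limited to ±2. IFIT2 and IFIT3 are lowest in the NC mimic libraries, and BST2, GBP2, IRF9 and IFI27 are lowest in both ELK3-labelled libraries.

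The design holds 3 comparisons. Any pair of them shares the libraries of a group, so their values are given side by side and not as independent evidence. The first set miR-200a against the NC mimic and asks what the mimic does. 1 of the 45 tested members, IFIT3, was higher at an adjusted p under 0.05 (edgeR quasi-likelihood test, Benjamini-Hochberg over 12650 genes), and no member was lower. Over all tested genes 0.213% were higher and 0.0553% lower. At an unadjusted p under 0.05, 10 members were higher (HERC5, IFI6, IFIH1, IFIT1, IFIT2, IFIT3, ISG15, ISG20, OASL and TRIM21) and 0 were lower, against 5.13% and 4.11% of all tested genes. DESeq2 gave 4 members, IFIT1, IFIT2, IFIT3 and ISG20, which are 8.89% of those tested, against 0.696% of all genes. The median log2 fold change of the 45 members was 0.20, beside -0.02 over all genes, and 34 of the 45 had a positive value, as had 47.2% of all genes. In 20 of the 45 both miR-200a libraries lay above both NC mimic libraries and in 4 below, against 22.9% and 26.1% of all genes. When only the 4 libraries of these groups were modelled, 10 members were higher (HERC5, IFI6, IFIH1, IFIT1, IFIT2, IFIT3, IFITM3, ISG15, ISG20 and OASL) and 0 lower, against 4.77% and 3.12% of all genes. Over the 6 fits that each leave out 1 library, the median of the members ranged from 0.17 to 0.25.

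The second comparison set the ELK3-labelled libraries against those that received miR-200a alone and asks what the plasmid adds. The labels list no group with an empty plasmid, so added plasmid DNA and its ELK3 insert cannot be told apart. 7 of 45 tested members were lower, namely IFIT1, IFIH1, IFITM1, BST2, GBP2, IRF9 and IFI27, and no member was higher. Over all tested genes 5.91% were lower and 7.03% higher, or 889 higher and 748 lower, a split that upper-quartile scaling turned into 622 and 882 with the same 7 members lower. Of the members, 15.6% were lower, and 12.9% of all genes were called in either direction. DESeq2 gave 5 members, all lower (GBP2, IFI27, IFIT1, IFITM1 and IRF9). These are 11.1% of those tested, against 9.59% of all genes in either direction. At an unadjusted p under 0.05, 14 members were lower and 2, HERC6 and IFI44, were higher, against 14.1% and 16.5% of all genes. The median over the 45 members was -0.16, beside 0.02 over all genes, and 16 of the 45 had a positive value, as had 51.2% of all genes. In 20 of the 45 both ELK3-labelled libraries lay below both miR-200a libraries and in 6 above, against 28.0% and 30.2% of all genes. With only these 4 libraries modelled, 3 were lower (GBP2, IFI27 and IFIT1) and 0 higher, against 2.27% and 2.31% of all genes. Over the 6 fits that each leave out 1 library, the median of the members ranged from -0.36 to -0.11.

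The third comparison set the ELK3-labelled libraries against the NC mimic. 2 members, IFIT2 and IFIT3, were higher and 4, EPSTI1, GBP2, IRF9 and UBE2L6, were lower, beside 6.92% and 5.95% of all tested genes. Those were 876 higher and 753 lower genes, and 677 and 902 with upper-quartile scaling, which called the same members. The shares among the tested members were 4.44% and 8.89%. At an unadjusted p under 0.05, 7 were higher and 8 lower, against 16.2% and 14.5% of all genes. In 12 of the 45 both ELK3-labelled libraries lay above both NC mimic libraries and in 12 below, against 29.0% and 27.6% of all genes. A positive value was found in 27 of the 45 and in 50.9% of all genes. The median was 0.14, beside 0.01 over all genes, and it was -0.01 without the second ELK3-labelled library. DESeq2 gave 3 members, GBP2, IFIT2 and IFIT3, or 6.67% against 9.99% of all genes, and so did the model of only these 4 libraries, where 2.35% of all genes were higher and 2.38% lower. Over the 6 fits that each leave out 1 library, the median of the members ranged from -0.01 to 0.16.

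**Figure D3:**
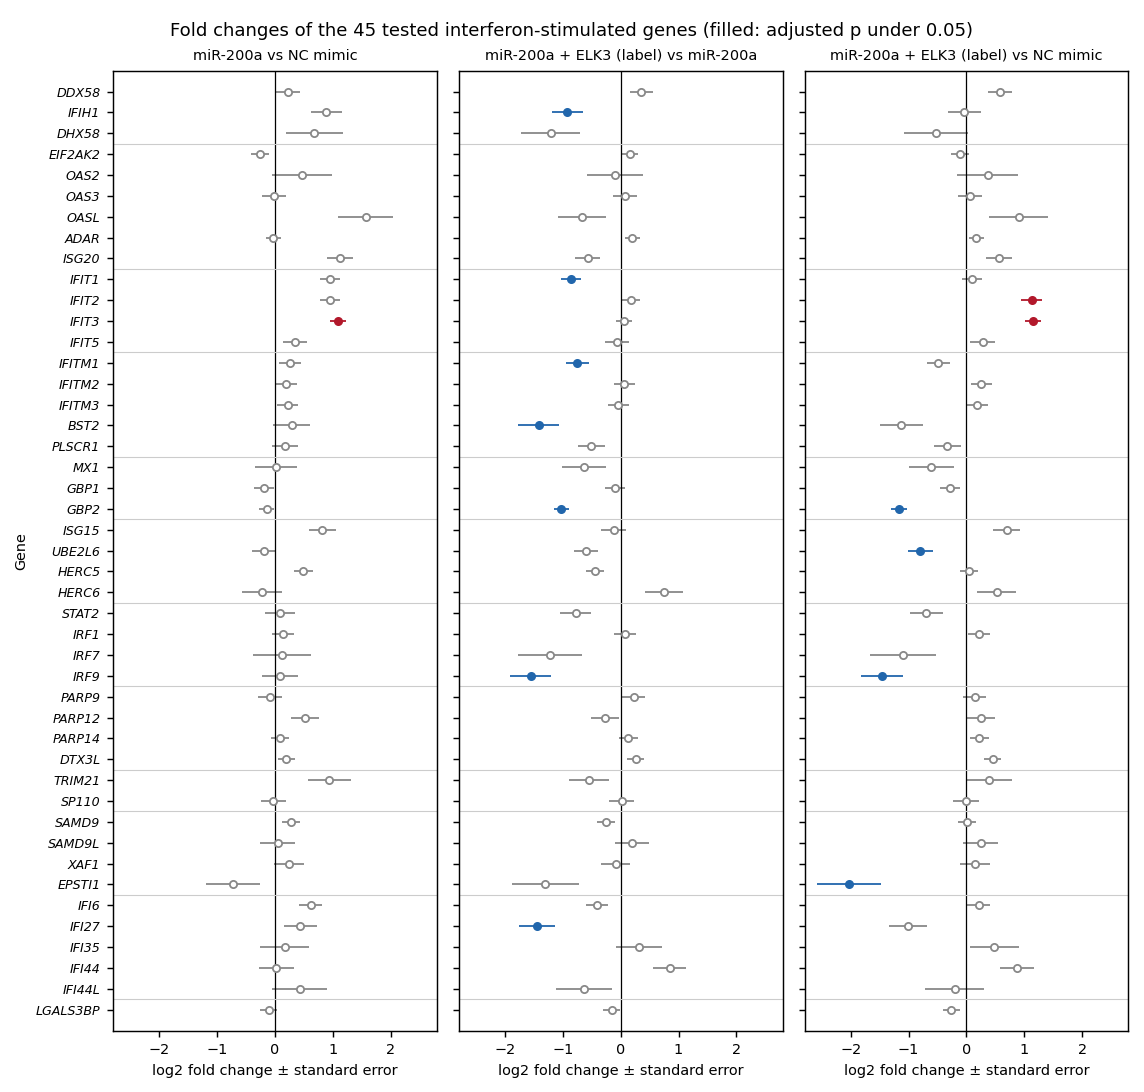
Log2 fold change with its standard error for the 45 tested members in the 3 comparisons, 1 panel each, with genes in the same order. Filled points passed an adjusted p of 0.05, which are 1, 7 and 6 genes from left to right.

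In at least 1 of the comparisons 11 of the 45 tested members passed (24.4%), beside 18.0% of all tested genes. In the IFIT family these were 3 of 4 members, and their group levels were not in the same order. IFIT proteins bind foreign RNA ends and stop their translation, and IFIT1, IFIT2 and IFIT3 form a complex. IFIT3 was at 70.6 and 77.7 CPM with the NC mimic, 156 and 160 CPM with miR-200a, and 174 and 155 CPM in the ELK3-labelled libraries. All 4 treated libraries lay well above the NC mimic. It was 2.13-fold higher with miR-200a (log2 fold change 1.09, standard error 0.14, adjusted p = 0.0155) and 2.22-fold higher in the ELK3-labelled group (adjusted p = 0.00121), while the treated groups differed by 0.06 on the log2 scale (adjusted p = 0.800). The first of these calls was lost with limma (adjusted p = 0.156) and when any single NC mimic or miR-200a library was left out. In those fits the log2 fold change stayed between 1.02 and 1.16. In every comparison, a fit without 1 of these libraries called fewer of all tested genes than the main fit. A call lost there, for this gene and those below, is therefore not particular to the gene. The call in the ELK3-labelled group was lost without the first NC mimic library (adjusted p = 0.0552).

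IFIT2, which forms complexes with IFIT1 and IFIT3, was at 24.1 and 24.8 CPM with the NC mimic, 43.4 and 50.9 CPM with miR-200a and 51.6 and 55.0 CPM in the ELK3-labelled group. It was 2.18-fold higher in the ELK3-labelled group than with the NC mimic (log2 1.13, standard error 0.18, adjusted p = 0.00472), a call lost without the first (0.0826) or the second (0.0797) NC mimic library. Between miR-200a and the NC mimic the difference was 0.95, at an adjusted p of 0.0713. IFIT1, the member that recognises RNA whose cap is incompletely methylated, took a different course. Its levels were 32.7 and 29.0 CPM with the NC mimic, 63.3 and 57.3 CPM with miR-200a and 35.5 and 30.8 CPM in the ELK3-labelled group. The miR-200a libraries stood apart from all others, and the ELK3-labelled group overlapped the NC mimic. IFIT1 fell 1.82-fold from miR-200a to the ELK3-labelled group (log2 fold change -0.86, standard error 0.17, adjusted p = 0.0133), with 0.96 between miR-200a and the NC mimic (adjusted p = 0.0662) and 0.10 between the ELK3-labelled group and the NC mimic (adjusted p = 0.754). Without either miR-200a library the fall had an adjusted p of 0.162 or 0.119, and with limma 0.0612. The differences of IFIT1 and IFIT2 between miR-200a and the NC mimic passed with DESeq2 (0.0163 and 0.0210), without the filter and with only the 2 groups. They did not pass with upper-quartile scaling, at least 10 counts in each library, the replicate block or limma. IFIT5, which binds RNA on its own, passed in no comparison and lay between 21.4 and 31.7 CPM.

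IFIT1, IFIT2 and IFIT3 lie within or beside LIPA, a lysosomal lipase gene on the opposite strand, and the sources used here do not state whether the counting used strand. LIPA had 222 and 196 counts in NC mimic libraries, 226 and 214 after miR-200a and 166 and 125 in the ELK3-labelled group. Its log2 fold change in the ELK3-labelled group against the NC mimic was -0.72 (adjusted p = 0.0430), the opposite direction to IFIT2 and IFIT3. Against miR-200a alone it was -0.40 (adjusted p = 0.208), the same sign as the fall of IFIT1, and between miR-200a and the NC mimic it was -0.32 (adjusted p = 0.700).

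Of the RNA sensors, 1 of 3 passed. IFIH1 encodes MDA5, which detects long double-stranded RNA. It was at 9.13 and 9.79 CPM with the NC mimic, 15.8 and 19.2 CPM with miR-200a and 10.2 and 8.23 CPM in the ELK3-labelled group, and again the miR-200a libraries were the high ones. The difference between miR-200a and the NC mimic, 0.89 on the log2 scale, did not pass (adjusted p = 0.300). Between the ELK3-labelled group and the NC mimic it was -0.03 (adjusted p = 0.950). IFIH1 fell 1.90-fold from miR-200a to the ELK3-labelled group (log2 -0.92, standard error 0.26, adjusted p = 0.0451). The call was lost with DESeq2 (0.100), with limma (0.0739), with only the 2 compared groups (0.0912), and when any library except the first ELK3-labelled one was left out, giving 0.0529 to 0.300. DDX58, which encodes RIG-I, the sensor of RNA with a triphosphate end, was at 77.1 and 50.9 CPM, 76.6 and 74.0 CPM, and 85.5 and 108 CPM in the same order. The ELK3-labelled value exceeded the NC mimic by 0.58 on the log2 scale (adjusted p = 0.0839). DHX58, which encodes the regulator LGP2, had 5 to 32 counts.

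None of the 6 tested members grouped as double-stranded RNA effectors passed in any comparison. ISG20, placed in this group although it is an exonuclease of single-stranded RNA, came nearest. It was at 16.0 and 14.7 CPM in NC mimic libraries, 31.4 and 36.3 CPM after miR-200a and 19.7 and 25.9 CPM in the ELK3-labelled group. The 3 groups did not overlap, and the difference between miR-200a and the NC mimic was 1.13 on the log2 scale (standard error 0.22, adjusted p = 0.0798). That difference passed with DESeq2, without the filter and with only the 2 groups. It did not pass with upper-quartile scaling, at least 10 counts in each library, the replicate block or limma. OASL, an OAS relative without synthetase activity that enhances RIG-I signalling, had 9 and 7, 37 and 25, and 12 and 22 counts. Its first difference was 1.57 (standard error 0.48, adjusted p = 0.306), the largest value of any tested member in that comparison, with a wide error. EIF2AK2, the kinase PKR that halts translation, and ADAR, the editor of adenosine in double-stranded RNA, were both abundant and even, ADAR at 117 and 115, 116 and 111, and 137 and 124 CPM. OAS3, a synthetase of the second messenger that activates RNase L, lay between 23.2 and 30.1 CPM, and OAS2 between 2.23 and 4.97 CPM.

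Among the genes of membrane defence, 2 of 5 tested members fell from miR-200a to the ELK3-labelled group. BST2 encodes tetherin, which holds budding virus at the cell surface. It was at 6.68 and 6.20 CPM with the NC mimic, 8.10 and 7.74 CPM with miR-200a and 2.61 and 3.29 CPM in the ELK3-labelled group, where it had 11 and 14 counts. It fell 2.67-fold (log2 fold change -1.42, standard error 0.35, adjusted p = 0.0285), and against the NC mimic the value was -1.12 (adjusted p = 0.0728). The call was lost with DESeq2 (0.0755), limma (0.0531) and only the 2 compared groups (0.0657), without either NC mimic library (0.0652 and 0.0647) and without either miR-200a library (0.180 and 0.176). IFITM1, a transmembrane protein that impairs fusion of virus with the cell, was at 29.6 and 37.9 CPM, 39.2 and 41.2 CPM, and 22.0 and 25.9 CPM. It fell 1.68-fold from miR-200a to the ELK3-labelled group (log2 -0.75, standard error 0.20, adjusted p = 0.0348). Leaving out any NC mimic or miR-200a library gave 0.0682 to 0.237, the 2 groups alone gave 0.0683 and limma 0.101.

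IFITM3, the most abundant member, did not pass in any comparison, and its 2 libraries in the ELK3-labelled group lay far apart at 479 and 755 CPM, on both sides of the 621 and 646 CPM of miR-200a and the 579 and 509 CPM of the NC mimic. Without the first ELK3-labelled library IFITM3 was 0.26 above miR-200a on the log2 scale (adjusted p = 0.00728), and without the second it was -0.45 (adjusted p = 8.6e-05). IFITM2 was spread in the same way, at 162 and 253 CPM in the ELK3-labelled group. IFITM1, IFITM2 and IFITM3 are neighbours of similar sequence, so reads could be divided among them and their single values may be uncertain. This was not tested. IFITM1 too was higher in the second ELK3-labelled library (25.9 CPM) than in the first (22.0 CPM). PLSCR1, a scramblase of membrane lipids, lay between 19.0 and 31.3 CPM.

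GBP2, a guanylate-binding GTPase that coats intracellular pathogens, passed in both comparisons of the ELK3-labelled libraries. It was at 206 and 183 CPM with the NC mimic, 175 and 177 CPM with miR-200a and 83.1 and 90.2 CPM in the ELK3-labelled libraries. The NC mimic and miR-200a differed by -0.14 on the log2 scale (adjusted p = 0.806). In the ELK3-labelled group GBP2 was 2.03-fold lower than with miR-200a (log2 -1.02, standard error 0.13, adjusted p = 0.00257) and 2.24-fold lower than with the NC mimic (log2 -1.16, adjusted p = 0.000991). The call against the NC mimic was kept under all 13 alternatives, and that against miR-200a was lost without the first (0.0726) or the second (0.0675) miR-200a library and with limma (0.0531). GBP2 overlaps GBP7 on the same strand. Its relative GBP1 was at 63.9 and 54.2, 54.6 and 49.9, and 43.6 and 54.1 CPM and passed in no comparison. MX1, a dynamin-like GTPase that traps viral ribonucleoproteins, had 14 to 30 counts.

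In the ISG15 conjugation system, which attaches the ubiquitin-like protein ISG15 to other proteins, 1 of 4 tested members passed. UBE2L6, the E2 enzyme, was at 37.0 and 34.3 CPM with the NC mimic, 27.4 and 34.8 CPM with miR-200a and 18.0 and 23.0 CPM in the ELK3-labelled group. It was 1.74-fold lower in the ELK3-labelled group than with the NC mimic (log2 -0.80, standard error 0.22, adjusted p = 0.0378). DESeq2 gave 0.0519, limma 0.0997 and the 2 groups alone 0.0808, and leaving out any NC mimic or miR-200a library gave 0.0804 to 0.219. ISG15 itself was at 20.7 and 29.4, 40.5 and 46.9, and 33.9 and 46.3 CPM. Every treated library was above both NC mimic libraries, but the differences of 0.82 (adjusted p = 0.260) and 0.70 (adjusted p = 0.0761) did not pass. HERC5, the main E3 ligase for ISG15, was at 47.7 and 50.9, 70.6 and 67.9, and 54.9 and 46.3 CPM, with 0.49 in the first comparison (adjusted p = 0.337) and -0.45 in the second (adjusted p = 0.0838). In the first comparison HERC5 passed with only the 2 groups (0.00609), and not with DESeq2 (0.617) or limma (0.420).

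Of the 4 interferon transcription factors, 1 passed. IRF9 is the DNA-binding subunit of the complex it forms with STAT2. It was at 7.57 and 7.50 CPM with the NC mimic, 8.51 and 7.54 CPM with miR-200a and 2.84 and 2.59 CPM in the ELK3-labelled group, from 12 and 11 counts there. It was 2.94-fold lower than with miR-200a (log2 -1.55, standard error 0.35, adjusted p = 0.0207) and 2.76-fold lower than with the NC mimic (adjusted p = 0.0283). The first call was lost with the 2 groups alone (0.0544) and when any NC mimic or miR-200a library was left out (0.0537 to 0.164). The second was lost with DESeq2 (0.0676), the 2 groups alone (0.0695) and without the same libraries (0.0660 to 0.154). IRF9 overlaps a lesser annotated gene on the same strand, AL136295.5. STAT2, its partner, was at 19.8 and 18.6, 19.1 and 21.8, and 9.00 and 14.8 CPM. Both libraries of the ELK3-labelled group were below the other 4, and the differences were -0.78 (adjusted p = 0.0842) and -0.69 (adjusted p = 0.123). IRF1, which answers mainly to interferon gamma, was even at 39.9 to 54.3 CPM, and IRF7, the factor that amplifies interferon alpha genes, had 7 to 39 counts with wide spread in each group.

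Of the other members, IFI27 and EPSTI1 passed. IFI27 encodes a small mitochondrial membrane protein and is among the strongest markers of an interferon response in blood. It was at 8.24 and 10.1 CPM with the NC mimic, 11.2 and 13.4 CPM with miR-200a and 4.74 and 4.23 CPM in the ELK3-labelled group. The 3 groups did not overlap, and it fell 2.74-fold from miR-200a to the ELK3-labelled group (log2 -1.45, standard error 0.31, adjusted p = 0.0167), while against the NC mimic the value was -1.02 (adjusted p = 0.0673). Without the first or the second miR-200a library the fall had an adjusted p of 0.117 or 0.170, and with limma 0.0515. EPSTI1, named for its induction in breast epithelium by stromal cells, was low throughout, with 19 and 11 counts, 14 and 9 counts, and 4 and 4 counts. It was 4.09-fold lower in the ELK3-labelled group than with the NC mimic (log2 -2.03, standard error 0.55, adjusted p = 0.0388). With only the 2 groups the adjusted p was 0.0726, DESeq2 gave no adjusted p, and leaving out any single library other than the first ELK3-labelled gave 0.0608 to 0.202.

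IFI6, a mitochondrial and endoplasmic reticulum protein that protects cells from death, was at 25.4 and 22.5, 37.0 and 37.1, and 24.4 and 31.3 CPM. The miR-200a libraries were the highest, at 0.62 over the NC mimic (adjusted p = 0.336). IFI44, a cytoplasmic protein of unclear action, was at 8.46 and 12.1, 10.8 and 9.78, and 21.6 and 15.5 CPM. It was on the other side, with both libraries of the ELK3-labelled group above the other 4, at 0.85 over miR-200a (adjusted p = 0.0740) and 0.87 over the NC mimic (adjusted p = 0.0756). PARP9 and DTX3L, partners in a complex of ADP-ribosylation and ubiquitylation, lie head to head. Their promoter windows hold the same ISRE core at chr3:122564327-122564346 (GRCh38.p14), read from opposite strands, with its core in capitals.
PARP9: caaagTTTCAGTTTCgcttc
DTX3L: gaagcGAAACTGAAActttg

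DTX3L was at 64.6 and 60.4, 73.3 and 70.1, and 82.4 and 88.8 CPM, 0.45 higher on the log2 scale in the ELK3-labelled group than with the NC mimic at an adjusted p of 0.0652, and PARP9 lay between 25.3 and 35.7 CPM with no such order. PARP14, SP110, SAMD9 and LGALS3BP, the most abundant of their role groups, passed in no comparison. The 34 tested members that never passed had log2 fold changes from -0.26 (EIF2AK2) to 1.57 (OASL) in the first comparison, with 26 above 0 and 8 below. In the second they ran from -1.22 (IRF7) to 0.85 (IFI44), with 14 above and 20 below. In the third they ran from -1.10 (IRF7) to 0.91 (OASL), with 24 above and 10 below.

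**Figure D4:**
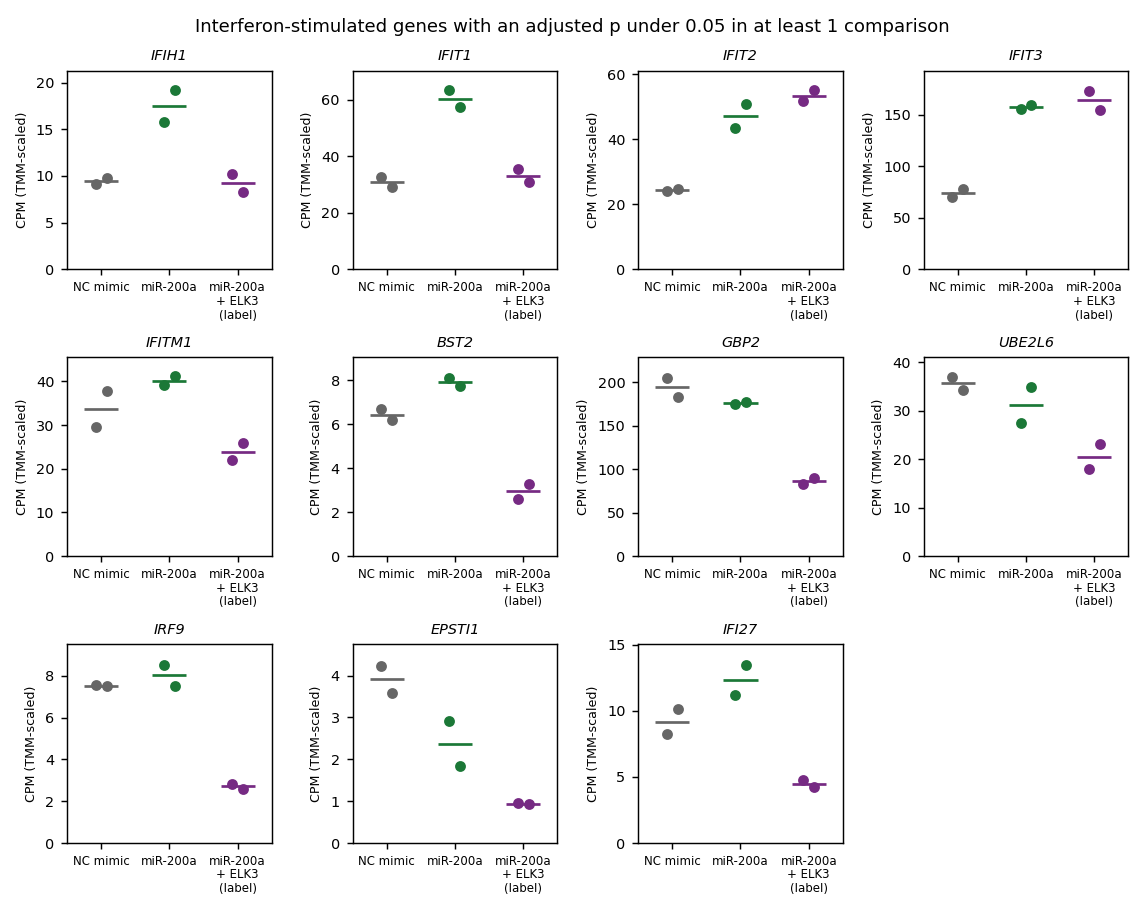
CPM of the 11 members that passed in at least 1 comparison, 1 panel per gene, with each library as a point and the group mean as a line. IFIT2 and IFIT3 are high in both treated groups, IFIT1 and IFIH1 are high with miR-200a alone, and GBP2, IRF9, BST2 and IFI27 are low in the ELK3-labelled libraries. Of the rises with miR-200a over the NC mimic, only that of IFIT3 passed.

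The genes upstream of the set were examined in a list of 35, of which 27 were tested. No read of IFNB1, IFNA1, IFNE, IFNK, IFNL2 or IFNL3 was counted in any library, so each was at or below 3 counts, or 0.611 to 0.979 CPM. IFNL1, a type III interferon, had 0 counts in both NC mimic libraries, 9 and 1 after miR-200a and 2 and 1 in the ELK3-labelled group, and was not tested. The receptors of type I interferon were present, IFNAR1 at 128 and 89, 131 and 169, and 141 and 250 counts and IFNAR2 at 21 to 35 counts. IFNGR2, a chain of the interferon gamma receptor, was at 79.3 and 74.7 CPM with the NC mimic, 71.6 and 58.5 CPM with miR-200a and 48.5 and 43.7 CPM in the ELK3-labelled group. It was 1.67-fold lower there than with the NC mimic (log2 -0.74, adjusted p = 0.0191). Feedback gene SOCS1, an inhibitor of JAK kinases, had 16 and 10, 45 and 31, and 17 and 5 counts, with -1.58 on the log2 scale in the second comparison at an adjusted p of 0.0628.

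Among the sensor adaptors and kinases, TMEM173 encodes STING, the adaptor of cytosolic DNA sensing. It was at 20.3 and 18.9 CPM with the NC mimic, 44.6 and 42.0 CPM with miR-200a and 26.5 and 24.7 CPM in the ELK3-labelled group. The 3 groups were separate, with the same order as IFI6 and ISG20 have in their group means. TMEM173 was 2.20-fold higher with miR-200a (log2 1.14, standard error 0.19, adjusted p = 0.0416) and fell 1.69-fold from there to the ELK3-labelled group (log2 -0.76, adjusted p = 0.0239). It was the 1 gene of the 27 that passed in the first comparison and the 1 that passed in the second. Over all tested genes 0.213% were higher in the first and 5.91% were lower in the second. MAVS, the mitochondrial adaptor of RIG-I and MDA5, was at 121 and 129, 142 and 127, and 164 and 185 CPM, 1.40-fold higher in the ELK3-labelled group than with the NC mimic (adjusted p = 0.0422). IKBKE, a kinase that activates IRF3 and IRF7, was at 20.5 and 21.9, 29.9 and 26.9, and 34.1 and 59.2 CPM, 2.21-fold higher in the same comparison (adjusted p = 0.0211). In that comparison 2 of the 27 were higher and 1, IFNGR2, was lower, beside 6.92% and 5.95% of all tested genes. In at least 1 comparison 4 of the 27 passed, beside 18.0% of all tested genes. The calls of these 4 genes were lost without either NC mimic library and without either miR-200a library, with adjusted p values from 0.0519 (IFNGR2) to 0.756 (TMEM173), and with limma (0.0669 to 0.174). Apart from the first call of TMEM173 they were also lost with only the 2 compared groups (0.0522 to 0.112), and MAVS was lost with DESeq2 (0.0806) and upper-quartile scaling (0.0692).

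**Figure D5:**
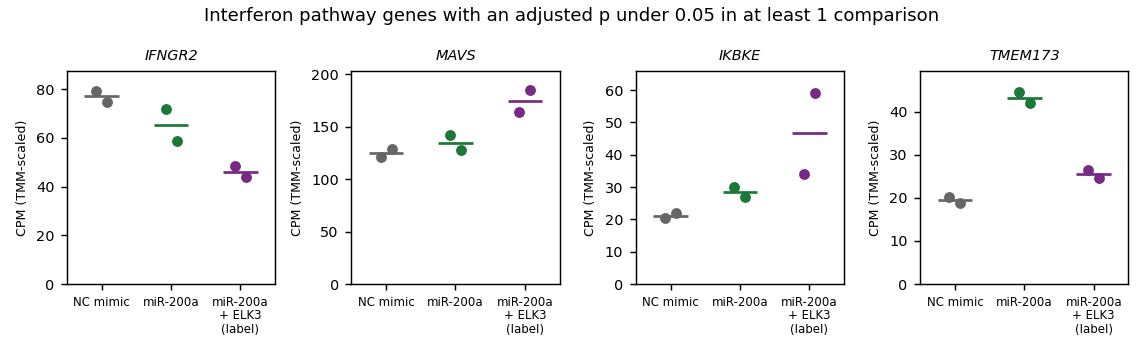
CPM of the 4 upstream genes that passed in at least 1 comparison, 1 panel per gene, with each library as a point and the group mean as a line. TMEM173 is highest in both miR-200a libraries, while IKBKE and MAVS are highest and IFNGR2 is lowest in the ELK3-labelled libraries.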

How the data were processed

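RNA of 6 libraries of MDA-MB 231 cells was made into QuantSeq 3′ libraries. For each gene symbol the deposited value is a raw read count, a whole number that the authors had not normalized. The submitters' processing notes name Bowtie2, edgeR and hg19, without versions. The counting program, annotation, use of strand and any molecular identifiers are not given in the sources used here. Each file lists 25737 lines and 24462 symbols, and the 286 symbols on several lines, 0 of them members, were summed.

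Groups came from the labels. The test was that of edgeR 4.0.16 under R 4.3.3 (TMM, filterByExpr with a minimum count of 10, quasi-likelihood test over all 3 groups with 3 residual degrees of freedom, Benjamini-Hochberg over 12650 genes, threshold 0.05). CPM use TMM-scaled library sizes. The alternatives were DESeq2 1.42.0, upper-quartile scaling, no filter beyond a count in 1 library, at least 10 counts in each library, only the 2 compared groups, a replicate block, limma 3.58.1 on quantile-normalized log2(count + 1), the criteria of the study's methods (p under 0.05, fold over 1.5, normalized value over 3), and leaving out each library. Library totals had a median of 4444804 counts. Replicates of no group agreed within sampling noise (chi-square over degrees of freedom 2.38 between NC mimic libraries, 1.90 after miR-200a and 13.4 for the ELK3-labelled pair), so none was taken as a repeated library. The procedure was tested on simulated data.

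The members, the list of upstream genes and the marker lists were chosen with earlier results of these data known. Genes are named if they passed in some comparison, or are the most abundant of their role group. All other genes, such as ISG20, ISG15, STAT2, IFI44 and SOCS1, were named after their values were seen. The values of 1 gene on the upstream list are not reported here. Promoters and the miRNA are from RefSeq (GRCh38.p14), and 3′ untranslated regions from GENCODE (GRCh38). No coordinates were taken from hg19.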

Additional observations from a re-analysis of the deposited data

How the results depend on the processing

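The counts of calls were computed under 8 other settings, 6 fits that leave out a library, and 1 block chosen after seeing the data. The study's criteria give no fold change, so the medians and the values of named genes have no value there, and the added block was not run for named genes. EPSTI1 did not pass the filter of 10 counts in each library. Genes called for miR-200a against the NC mimic (34) were 88 with DESeq2, 230 without the filter, 999 with only the 2 groups, 4 with limma, 578 under the study's criteria and 0 to 1001 leaving out a library. Members called (1) were 4, 5, 10, 0 and 9, and 0 to 10. For the ELK3-labelled libraries against miR-200a, genes (1637) were 2490 without the filter, 579 with only the 2 groups, 107 with limma, 2415 under the study's criteria and 39 to 4730 leaving out a library. Members (7) were 3 with only the 2 groups, 1 with limma, 12 under the study's criteria and 0 to 15, and their median (-0.16) was -0.24 with limma and -0.36 to -0.11. Against the NC mimic, genes (1629) were 2525 without the filter, 598 with only the 2 groups, 391 with limma, 2455 under the study's criteria and 90 to 4721. Members (6) were 3 with DESeq2, 3 with only the 2 groups, 11 under the study's criteria and 1 to 15, and their median (0.14) was -0.011 to 0.16. The causes were not tested. A fit that leaves 1 library in a group assumes that it varies like the others. Upper-quartile scaling turned the split of 889 higher and 748 lower genes into 622 and 882 in the second comparison, and 876 and 753 into 677 and 902 in the third, with the same members called.

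The replicate numbers were not shown to pair libraries, since deviations of same-numbered libraries correlated at -0.003, -0.036 and -0.108. With the replicate block 13, 1157 and 1170 genes and 1, 6 and 5 members were called, with IFIH1 (adjusted p = 0.0736) and EPSTI1 (0.0592) no longer called, and of the upstream genes TMEM173 in the first comparison (0.0926) and MAVS (0.0761). A block with the numbers of the third group crossed, chosen after seeing the data, called 22, 1644 and 1661 genes and 1, 7 and 7 members.

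Of 972 values for 75 results on named genes, 30 changed sign, none of them for a result called in the main comparison. Leaving out single libraries turned the following uncalled values by more than their standard error, or past the threshold, and ranges are over the 6 such fits. In the first comparison DDX58 ranged from -0.033 (without the second NC mimic library) to 0.56. In the second, IFITM3 ranged from -0.45 to 0.26 (without the first ELK3-labelled library), and without the second IRF1, PARP14 and SP110 turned to -0.18, -0.11 and -0.25, their highest values being 0.26, 0.31 and 0.21. In the third, without the second ELK3-labelled library, IFI6, IFITM3, IRF1 and PARP14 turned to -0.011, -0.21, -0.025 and -0.0023, and their highest values were 0.39, 0.49, 0.42 and 0.42. Depth limits the 7 untested members, and EPSTI1, BST2 and IRF9 rest on 4 to 14 counts per library in the ELK3-labelled group.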
